A study of Mus musculus with 16 samples.

Results

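Acetylation of histone H3 at lysine 27 (H3K27Ac) was compared between cardiomyocytes of Des+/+ and Des-/- mice after swimming, that is, with and without desmin in exercised hearts. The comparison used 2 of the 16 samples of the series, the Des+/+ swim and the Des-/- swim H3K27Ac libraries, each deposited as a list of peaks. These lists held 11157 and 10407 peaks, 21564 of the 56149 peaks in the 8 peak lists of the series. Adult cardiomyocytes were freshly isolated by enzymatic perfusion of hearts from 3-month-old mice, chromatin of several mice went into each library, and each list gives an input height beside every peak. Des-/- animals carry no intact desmin gene in any cell, so the comparison covers a lifelong lack of the protein followed by exercise. The corresponding basal libraries, from Des+/+ and Des-/- mice that had not swum, served as a reference for what the genotypes shared at rest. Peaks of the swim lists that overlapped by at least 1 bp were taken as common and the others as specific to a genotype.

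Desmin is the muscle intermediate filament protein. It ties the Z-discs of neighbouring myofibrils to each other, to the costameres, the intercalated discs and the mitochondria, and to the nuclear envelope through the LINC complex. H3K27Ac is laid down by p300 and CBP and marks active promoters and enhancers, and in cardiomyocytes its broadest and tallest domains lie over sarcomere, metabolic and cardiac transcription factor genes. A mark of this kind reports the state of regulatory DNA, not the amount of transcript.

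For every gene to which the authors had assigned a peak, the tallest peak in each list was taken. The height of a peak is the largest number of ChIP reads stacked at one position, and the smallest height in either list was 15. Heights were compared as the ratio Des-/- over Des+/+, divided by the median ratio of all shared genes, and given on the log2 scale (the relative log2 ratio). A gene was called lower or higher when the relative ratio passed 1.5-fold. With 1 library a side no test was possible. The intervals given are 95% intervals and cover counting error only, and they are approximate because a height is a maximum over positions. Heights of a gene are given in the order Des+/+ then Des-/-, and where 4 values follow each other the first pair was measured at rest and the second after swimming. A gene without a peak lay under the threshold of the list and may still have carried acetylated nucleosomes, so no fold was computed for it.

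The input of the Des-/- swim library was higher than that of the other libraries. The median input height under a peak was 3 reads for Des+/+ swim but 5 for Des-/- swim, and 967 peaks of Des-/- swim (9.29%) had an input of 10 or more, against 24 peaks (0.215%) of Des+/+ swim. The share grew with peak height in Des-/- swim, from 3.34% of peaks of 15 to 29 reads to 41.8% of those of 70 reads or more. Peaks with an input of 10 or more were therefore set aside when counting peaks and genes, leaving 11133 and 9440 peaks. Their absence can itself lower the tallest peak left to a gene, so heights are also given with overlapping peaks of both lists joined into regions, whatever their input and whatever gene name they carried. This second form, called paired by overlap, takes for each gene the tallest peak of each library over all its regions, and is used for single genes. The heights of the 2 libraries can then come from different regions of a gene, and for some genes the values of 1 region are given as well. Input and genotype belong to the same library and cannot be told apart.

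Of the Des+/+ swim peaks, 3003 (27%, Wilson interval 26.2 to 27.8) had no counterpart in Des-/- swim, and of the Des-/- swim peaks 2264 (24.0%, 23.1 to 24.9) had none in Des+/+ swim. The unmatched peaks were low in both libraries, with a median height of 17 reads, against 23 and 25 reads for peaks with a counterpart. Only 12 of the Des+/+ peaks and 17 of the Des-/- peaks without a counterpart reached 30 reads. Most of them overlapped a peak of the basal lists, though a smaller share than of the peaks with a counterpart, of which 97.4% to 98.5% did. Among the Des+/+ swim-only peaks 75.1% (73.5 to 76.6) overlapped a peak of Des+/+ basal and 75.1% one of Des-/- basal. Among the Des-/- swim-only peaks the shares were 70.9% (69.0 to 72.7) and 77.5% (75.8 to 79.2).

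Counted by gene, 8264 genes had a peak in at least 1 swim list. A peak in Des+/+ swim only was found for 1255 of them (15.2%) and a peak in Des-/- swim only for 1108 (13.4%). Among the 5289 genes with a peak in both, the median ratio was 1.095 (1.084 to 1.105), 351 genes (6.64%) were lower and 197 (3.72%) higher in Des-/- swim. Pairing peaks by overlap gave 1147 of 8315 genes (13.8%) in Des+/+ swim only, 1037 (12.5%) in Des-/- swim only, and among 6131 shared genes a median ratio of 1.118 with 241 genes (3.93%) lower and 196 (3.20%) higher. These shares are the background against which each gene group below is read. Of the genes specific to Des+/+ swim, 951 (75.8%) had a peak in both basal lists, and of those specific to Des-/- swim, 763 (68.9%). Most genes seen in 1 genotype after swimming had thus been acetylated in both genotypes at rest.

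The tallest genes that counted as specific were mainly products of naming. All 10 tallest Des+/+-only genes, headed by Rhoa (85 reads), Txnip (53), Dzank1 (48) and Marchf5 (48), overlapped a Des-/- peak that carried another gene's name, and the Des-/- heights at Rhoa and Txnip were 102 and 52 reads. Of the 10 tallest Des-/--only genes, which included Ppp1r10 (83 reads), Ddx42 (55) and Gna13 (53), 9 were of the same kind and only the non-coding 4930515G16Rik (44 reads) had no counterpart. Among the 10 lowest ratios, 9 genes had their tallest Des-/- peak at an input of 10 or more. Myom1, a protein of the M-band, had a relative log2 ratio of -2.69 with the input limit and heights of 112 and 103 reads without it, and Mir23a had 109 and 115 reads. Sun2, an inner nuclear membrane protein of the LINC complex, had heights of 58 and 59 reads once peaks were paired by overlap. Of the 10 highest ratios, headed by 0610009L18Rik and Tcta, only Mir7654 (24 and 55 reads) and Otub1 (15 and 34 reads) stayed past 1.5-fold when paired. The extremes reached by the plain gene rule therefore say little, and the overlap-paired heights carry the description that follows.

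**Figure D1:**
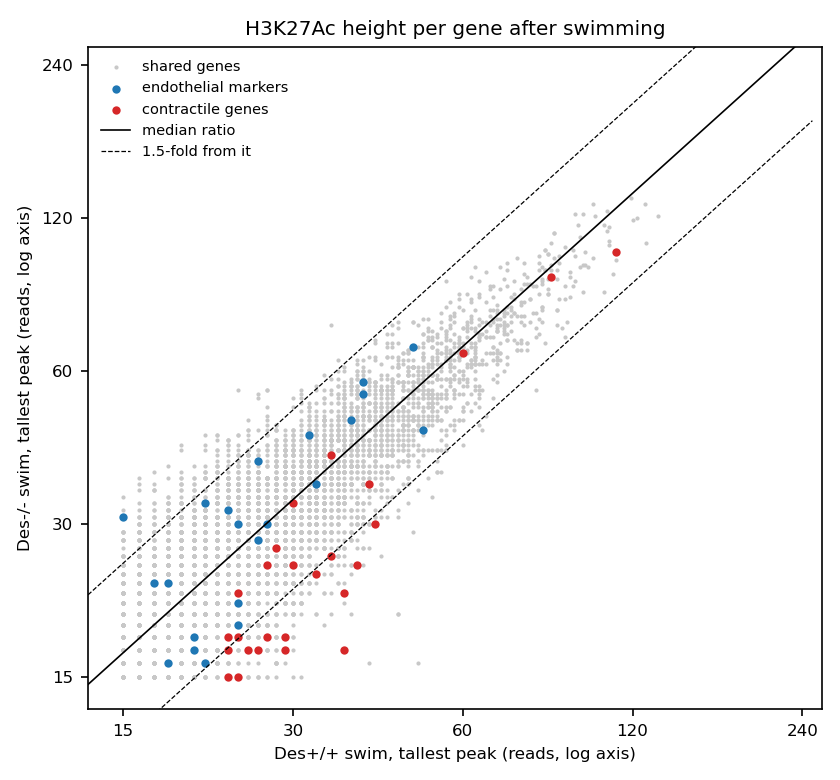
Tallest H3K27Ac peak of each shared gene in Des+/+ swim (x axis, reads, log scale) and Des-/- swim (y axis, reads, log scale), with peaks paired by overlap. The solid line is the median ratio of 1.118 and the dashed lines lie 1.5-fold from it; contractile genes (red) sit below the solid line in 25 of 26 cases, and endothelial markers (blue) lie on both sides of it.

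Examples of promoters that differed between the swim lists are given here with their sequence from the RefSeq promoter table (GRCm38.p6). Each window runs from 250 bases before to 20 bases after the annotated start, 5′ to 3′ on the strand of the gene, and was chosen because a swim peak overlapped it in 1 genotype or was lower there. Speg (chr1:75375047-75375316, plus strand) encodes a kinase of the striated muscle junctional membrane. Fhl2 (chr1:43196742-43197011, minus strand) encodes a LIM protein of the Z-disc. Nrap (chr19:56390019-56390288, minus strand) encodes an actin-anchoring protein of the intercalated disc. Mlycd (chr8:119394644-119394913, plus strand) encodes malonyl-CoA decarboxylase, which relieves the brake on fatty acid entry into mitochondria. Fabp3 (chr4:130308488-130308757, plus strand) encodes the heart fatty acid binding protein. Tcf7l1 (chr6:72789026-72789295, minus strand) encodes a transcription factor of the Wnt pathway, and is the example in the opposite direction. Capitals mark matches on either strand to the motifs of MEF2, the CArG box, GATA, TEAD, the estrogen-related receptor half-site, SOX, ETS and the TATA box, and common letters such as the GC box and the E-box were left unmarked.
Speg: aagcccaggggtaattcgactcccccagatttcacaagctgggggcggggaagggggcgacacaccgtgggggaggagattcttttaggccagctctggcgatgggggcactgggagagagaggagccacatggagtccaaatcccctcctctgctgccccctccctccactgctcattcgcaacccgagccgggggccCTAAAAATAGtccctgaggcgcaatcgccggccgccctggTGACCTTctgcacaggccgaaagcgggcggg
Fhl2: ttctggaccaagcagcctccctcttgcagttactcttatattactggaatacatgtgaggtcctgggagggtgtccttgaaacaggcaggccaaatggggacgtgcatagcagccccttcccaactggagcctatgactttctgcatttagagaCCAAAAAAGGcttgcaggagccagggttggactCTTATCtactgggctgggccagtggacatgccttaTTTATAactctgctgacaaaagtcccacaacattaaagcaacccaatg
Nrap: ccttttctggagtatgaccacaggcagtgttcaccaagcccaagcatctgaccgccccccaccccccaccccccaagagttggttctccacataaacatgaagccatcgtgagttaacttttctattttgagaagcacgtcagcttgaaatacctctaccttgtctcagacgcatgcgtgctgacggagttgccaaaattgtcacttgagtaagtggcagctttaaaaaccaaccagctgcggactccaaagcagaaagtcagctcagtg
Mlycd: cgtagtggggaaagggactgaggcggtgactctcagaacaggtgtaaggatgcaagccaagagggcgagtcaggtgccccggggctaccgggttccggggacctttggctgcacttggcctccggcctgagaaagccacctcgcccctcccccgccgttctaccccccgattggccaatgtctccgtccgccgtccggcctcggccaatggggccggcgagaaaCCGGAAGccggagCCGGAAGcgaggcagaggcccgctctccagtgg
Fabp3: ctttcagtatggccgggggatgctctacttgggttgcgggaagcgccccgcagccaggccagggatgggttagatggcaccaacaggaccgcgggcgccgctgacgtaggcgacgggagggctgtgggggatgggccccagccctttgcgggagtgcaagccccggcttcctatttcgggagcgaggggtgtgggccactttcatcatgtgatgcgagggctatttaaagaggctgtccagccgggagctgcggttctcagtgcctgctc
Tcf7l1: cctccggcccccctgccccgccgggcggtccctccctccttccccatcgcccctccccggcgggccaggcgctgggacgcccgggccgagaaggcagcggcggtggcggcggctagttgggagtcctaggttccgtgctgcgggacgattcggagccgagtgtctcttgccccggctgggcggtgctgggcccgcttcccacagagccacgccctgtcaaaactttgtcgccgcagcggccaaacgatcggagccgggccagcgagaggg

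At the Speg window the overlapping peak was 39 and 39 reads high at rest and 46 and 20 after swimming. Other Speg start windows differed from it. That at chr1:75381864-75382133 had no peak in Des+/+ swim and 17 reads in Des-/- swim. That at chr1:75399835-75400104 had 27 reads in Des+/+ swim and no peak in Des-/- swim. At the Fhl2 window the heights were 39, 32 and 29 reads in the first 3 libraries, and no Des-/- swim peak overlapped it. At Nrap they were 33, 34 and 28 reads, at Mlycd 40, 39 and 31, and at Fabp3 17, 22 and 19, again with no Des-/- swim peak. Tcf7l1 had 23 and 33 reads at rest, no peak in Des+/+ swim and 30 reads in Des-/- swim. All 6 windows had a peak in both genotypes at rest, and their swim values are those they were chosen for.

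The capitals in Speg are a match to the MEF2 motif and to the estrogen-related receptor half-site AAGGTCA. Those in Fhl2 are a CArG box, which serum response factor binds, a GATA motif (GATAAG) and a TATA box (TATAAA), and those in Mlycd are a pair of ETS motifs (CCGGAAG). None of the marked motifs lay in the Nrap, Fabp3 and Tcf7l1 windows, which says only that these letters are not there. Over 32851 RefSeq promoters cut in the same way, MEF2 matched 0.530%, the CArG box 1.53%, the estrogen-related receptor half-site 4.34%, GATA 6.97%, ETS 8.08% and the TATA box 12.9%. The matches describe the letters of the windows and are not measured binding sites.

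Contractile genes had lower H3K27Ac in Des-/- swim than in Des+/+ swim. Of 48 genes of the thick filament, thin filament and Z-disc, 37 had a swim peak with peaks paired by overlap. A peak in Des+/+ swim only was found for 11 (29.7%, against 13.8% of all genes), and none had a peak in Des-/- swim only. Among the 26 shared genes 14 were lower (53.8%, against 3.93%) and none was higher. The median relative log2 ratio was -0.59, and 25 of the 26 values were below 0. The number of peaks assigned to these genes was 124 and 65 after swimming, and 153 and 147 in the basal lists. At rest the median relative log2 ratio was -0.18 over 41 shared genes, with 31 below 0 and 10 above. At rest 4 of them were lower (9.76%, against 2.85% of all genes). In these bulk libraries, fewer cardiomyocytes and less acetylation per cardiomyocyte cannot be told apart.

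Thick filament and titin genes were measured through 10 members. Myh6, the alpha myosin heavy chain of the adult mouse ventricle, had heights of 46 and 44 reads at rest and 37 and 22 after swimming. The swim ratio was 0.595 (0.334 to 1.03), below the median ratio of all genes, and the relative log2 ratio was -0.91 after swimming and -0.17 at rest. Ttn, the giant spring protein of the sarcomere, had 28, 37, 24 and 15 reads in the same order, with a relative log2 ratio of -0.84. Its ratio of 0.625 (0.305 to 1.24) included the median ratio of all genes. Myl3, the ventricular essential light chain, had 28, 28, 25 and 17 reads. Myl2, the ventricular regulatory light chain, had 37, 23 and 24 reads and no Des-/- swim peak. Myh7, Mybpc3 and Mylk3 had 17, 15 and 15 reads in Des+/+ swim, at the edge of the list threshold, and none in Des-/- swim. Myom1 (112 and 103 reads) and the atrial light chain gene Myl4 (35 and 41) stayed within 1.5-fold. The promoter region of Myom1, apart from its tallest domain, had 33 and 19 reads (ratio 0.576, interval 0.309 to 1.04).

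Thin filament genes held the lowest ratio of the contractile genes. Tnnc1, cardiac troponin C, had 32 and 28 reads at rest and 37 and 17 after swimming. The ratio was 0.459 (0.243 to 0.837) and the relative log2 ratio -1.28, against -0.30 at rest. Its peak began 16 bp downstream of the start site. Actc1, cardiac alpha-actin, had 23, 27 and 27 reads (17.8 to 39.3 for the Des+/+ swim height) and no Des-/- swim peak. Tpm1, alpha-tropomyosin, had 27 and 18 reads after swimming, and Tmod1, which caps the pointed end of the filament, 23 and 15. Tnnt2 (24 and 22 reads), Tnni3 (28 and 27) and Lmod2 (30 and 25) were within 1.5-fold, and lay below 0 on the relative scale as well. The troponin subunits thus differed among themselves, with troponin C apart from T and I.

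Z-disc and costamere genes, the direct neighbours of desmin, formed the group with most members. Of 20 genes with a peak, 6 had one in Des+/+ swim only, and all 14 shared genes had a relative log2 ratio below 0, 8 of them past 1.5-fold. Actn2, sarcomeric alpha-actinin, had a tallest peak of 25 and 29 reads at rest and 24 in Des+/+ swim, and no Des-/- swim peak. Synpo2l (24 reads), Cryab (23), Mypn (22), Sorbs2 (22) and Ankrd1 (20) were likewise seen in Des+/+ swim only, and all 5 had a peak in both genotypes at rest. Cryab encodes alphaB-crystallin, the small heat shock protein that binds desmin. Myoz2, a calcineurin-binding Z-disc protein, had 41, 37, 39 and 25 reads in the 4 libraries, and its peaks numbered 6 and 1 after swimming. Fhl2 had 39, 32, 29 and 17 reads, the last from a peak outside the promoter window printed above. Myot (29 and 18 reads after swimming), Csrp3 (26 and 17), Flnc (23 and 17), Nexn (35 and 26) and Ldb3 (33 and 24) were lower. Bag3 (86 and 92 reads), Pdlim5 (60 and 65) and Pdlim1 (30 and 33) had heights close to the median ratio. Pdlim5 nevertheless had 9 and 2 peaks.

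**Figure D2:**
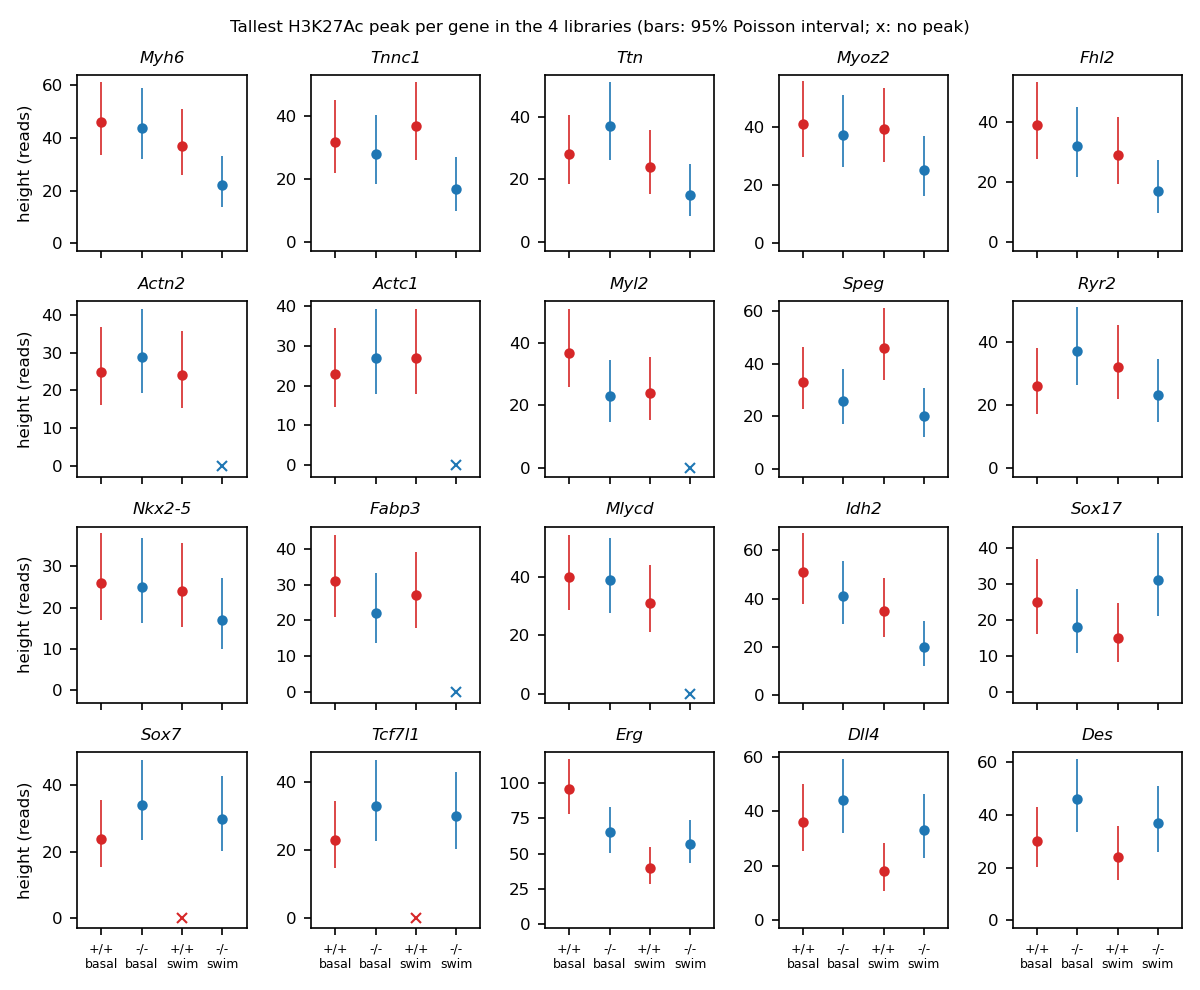
Tallest H3K27Ac peak (reads, y axis) of 20 genes in the 4 H3K27Ac libraries (x axis), with 95% Poisson intervals for counting error and a cross where the list had no peak. Peaks are paired by overlap, and Speg at rest is plotted from the peaks assigned to it (33 and 26 reads), not the 39 reads at its printed window. Contractile and fatty acid genes are lowest or absent in Des-/- swim, with Tnnc1 at 32, 28, 37 and 17 reads, whereas Sox17 (31 reads) and Sox7 (30) stand higher in Des-/- swim than in Des+/+ swim.

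Fixed markers of the cell types were read beside these values. Of 8 cardiomyocyte markers, 5 of which are contractile genes, 7 had a peak in every list but that of Des-/- swim, which held 5 and lacked Actn2 and Myl2. Nppa had no peak in any library. Their summed heights were 235 and 222 reads at rest and 195 and 115 after swimming. Of 12 endothelial markers, 12, 12, 11 and 10 had a peak in the same order, with summed heights of 506, 443, 312 and 342 reads. None of 11 fibroblast and mural markers, Col1a1 and Pdgfra among them, and none of 8 leukocyte markers, Ptprc and Cd68 among them, had a peak in either swim list. In wider lists, 3 of 26 fibroblast, pericyte and smooth muscle genes had a swim peak, 1 of them in Des-/- swim only. At rest 8 of these genes had a peak, 5 of them in Des-/- only and none in Des+/+ only. Of 26 leukocyte genes 1 had a swim peak, in Des-/- swim only. The cardiomyocyte sum was therefore lower in Des-/- swim than in Des+/+ swim. The endothelial sum was higher by a factor close to the median ratio of 1.095 over all shared genes. A marker without a peak added nothing to a sum, and the sums were not divided by the median ratio. The part of cell composition in the contractile differences was not tested.

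Desmin partners away from the sarcomere had a median near that of all genes. Of 17 genes of the cytoskeletal linkers, nuclear lamina and LINC complex with a peak, 15 were shared, with a median relative log2 ratio of 0.02 and 1 gene lower. That gene was Sun1, an inner nuclear membrane protein of the LINC complex, with 30, 30, 28 and 16 reads in the 4 libraries and a swim ratio of 0.571 (0.289 to 1.09). Lmna, the gene of lamin A/C, had 52 and 61 reads after swimming, Plec (plectin) 30 and 31, and Vcl (vinculin) 22 and 30. Syne3 (17 reads) was seen in Des+/+ swim only and Lmnb1 (16 reads) in Des-/- swim only, both near the list threshold. The Des locus itself carried peaks of 30, 46, 24 and 37 reads. Des was thus above the median in both conditions but within 1.5-fold, with relative log2 ratios of 0.46 after swimming and 0.51 at rest. A peak at this locus is no check of the deletion.

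Genes of the intercalated disc, where desmin is anchored between cells, had a median relative log2 ratio of -0.16 over 11 shared genes. Of these, 2 were lower (18.2%, against 3.93% of all genes). Nrap had 33, 34, 28 and 16 reads, the last from a peak outside the promoter window printed above. Its relative log2 ratio was -0.97 after swimming against -0.06 at rest. Dsp, desmoplakin, which binds desmin directly, had 34, 22, 26 and 18 reads, and its relative log2 ratios of -0.69 after swimming and -0.73 at rest were alike. Gja1, the main ventricular connexin, had 30 and 29 reads after swimming. Ctnna3 (17 reads) and Dsc2 (18 reads) were seen in Des+/+ swim only, whereas Ctnna1 stood at 45 and 71 reads, within 1.5-fold of the median. Nrap and Dsp therefore had similar swim values with different values at rest.

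Calcium handling genes had a lower peak or no listed peak in Des-/- swim in several cases. Over 11 shared genes the median relative log2 ratio was -0.37, with 3 genes lower (27.3%, against 3.93% of all genes) and none higher. A further 3 of the 14 genes with a peak were seen in Des+/+ swim only (21.4%, against 13.8% of all genes). Ryr2, the calcium release channel of the sarcoplasmic reticulum, had 26 and 37 reads at rest and 32 and 23 after swimming. Its relative log2 ratio was 0.41 at rest and -0.64 after swimming. Jph2, which holds the junctional membranes together, had 30 and 21 reads after swimming, and Srl (sarcalumenin) 27 and 19. Casq2, Cacnb2 and Trdn had 16 reads each in Des+/+ swim, near the list threshold, and no peak in Des-/- swim. Pln had 26 and 21 reads and Atp2a2, the reuptake pump, 57 and 56. The 3 genes past 1.5-fold were thus Ryr2, Jph2 and Srl, and the pump gene was not among them. Sodium and potassium channel genes had a median of -0.36 over 6 shared genes, none past 1.5-fold, with Abcc9 (15 reads) in Des+/+ swim only.

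Cardiac transcription factor genes had a median relative log2 ratio of -0.33 over 11 shared genes. Nkx2-5, a founding regulator of heart muscle genes, had 26, 25, 24 and 17 reads, and its peaks numbered 4 and 1 after swimming. Prox1 had 28, 27, 27 and 19 reads. Both were lower, with relative log2 ratios of -0.66 and -0.67 against -0.16 at rest for each. Myocd (16 reads), Irx4 (16) and Meis2 (19) were seen in Des+/+ swim only. Gata4 (31 and 26 reads), Gata6 (32 and 25), Mef2a (63 and 56) and Mef2c (31 and 27) were within 1.5-fold and below 0 by their tallest peaks, while Srf (40 and 45) and Mef2d (41 and 52) were at or above 0. Yap1 and Tead1, the Hippo pathway coactivator and its main DNA-binding partner, had 41 and 30 reads and 40 and 27 reads, with relative log2 ratios of -0.61 and -0.73, while the Hippo pathway as a whole had a median of 0.02 over 13 shared genes. Tead1 had an input of 10 reads in Des-/- swim. At Gata4 the 26 reads came from another region than the 31, and the promoter region itself had 31 and 16 reads (ratio 0.516, interval 0.264 to 0.973).

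**Figure D3:**
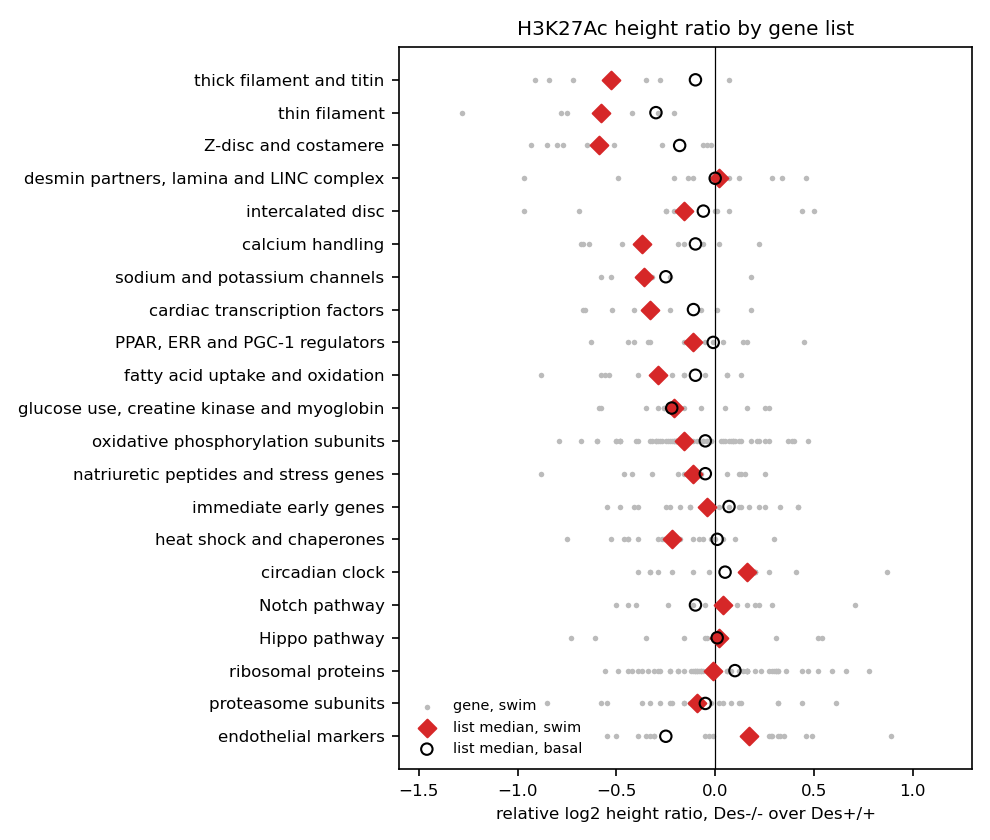
Relative log2 height ratio of Des-/- over Des+/+ (x axis) for shared genes of 21 gene lists, with peaks paired by overlap. Grey dots are genes after swimming, red diamonds the list medians after swimming and open circles the medians at rest. The 3 contractile lists have swim medians of -0.53, -0.58 and -0.59 and basal medians nearer 0, and endothelial markers have -0.25 at rest and 0.17 after swimming.

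Several genes of fatty acid use had a peak in Des+/+ swim only. Of 23 such genes with a peak, 7 were seen in Des+/+ swim only (30.4%, against 13.8% of all genes). None was seen in Des-/- swim only (against 12.5% of all genes). Mlycd had 40 and 39 reads at rest and 31 in Des+/+ swim (21.1 to 44.0), with 3 peaks there and none in Des-/- swim. Fabp3 had 31, 22 and 27 reads, also with 3 peaks in Des+/+ swim. Acadm, the medium-chain acyl-CoA dehydrogenase, had 31, 31 and 19 reads. Slc27a1, Hadha, Ucp3 and Decr1 had 15 to 17 reads in Des+/+ swim, where a small shift in depth decides presence. With a minimum of 20 reads the count of genes in Des+/+ swim only was 2. Among the 16 shared genes the median relative log2 ratio was -0.29, and 1 gene was lower. This was Pdk4, the kinase that shuts off pyruvate oxidation when fat is burnt, with 29, 26, 33 and 20 reads. Cd36, the fatty acid translocase, kept 15 peaks in each swim list and a height of 27 reads in both.

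The transcriptional regulators of these genes differed from one another. Ppargc1b, the coactivator PGC-1 beta, had 33, 38 and 31 reads and no Des-/- swim peak. Its relative Ppargc1a had 18, 18 and 15 reads, and Esrrb 21, 16 and 21, both with none in Des-/- swim. Esrrg, the estrogen-related receptor gamma of oxidative muscle, had 18 and 30 reads at rest and 25 and 18 after swimming. Ppara (28 and 23 reads), Esrra (19 and 16) and Klf15 (37 and 33) were within 1.5-fold and below 0, and Rxra (17 and 26) and Pparg (34 and 42) above 0. Over the 12 shared genes the median was -0.11. The genes without a Des-/- swim peak were thus both PGC-1 genes and 1 estrogen-related receptor gene. They were 3 of 15 regulator genes with a peak, not far from the background of 13.8% of all genes. The 15 reads of Ppargc1a were the smallest height in either list, where a small shift in depth decides presence.

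Glucose and phosphocreatine genes resembled those of fatty acid use. Of 20 with a peak, 7 were seen in Des+/+ swim only (35.0%, against 13.8% of all genes). These were Ckmt2 and Pgam2 (21 reads each), Pfkm (17) and, at 15 reads each, Ckm, Pygm, Gys1 and Slc2a1. Most of them lay near the list threshold, and with a minimum of 20 reads the count was 2. Over 12 shared genes the median relative log2 ratio was -0.21, with 1 gene lower. Phka1 (15 reads) was seen in Des-/- swim only. Ckm and Ckmt2 encode the muscle creatine kinases that buffer ATP. The subunits of oxidative phosphorylation behaved differently, with 60 of 67 genes shared, a median of -0.16, 3 genes in Des+/+ swim only and 4 in Des-/- swim only. Of the 3, Cox7a1 (21 reads) and Cox8b (20 reads) are the heart and muscle isoforms of cytochrome oxidase subunits, and the third was Ndufa9 (17 reads). The lower genes were Ndufs7 (34 and 22 reads), Atp5f1a (50 and 35), Ndufab1 (42 and 31) and Ndufb7 (38 and 28). They made up 6.67% of the shared subunit genes, not far from the 3.93% of all genes. Idh2, a mitochondrial isocitrate dehydrogenase (35 and 20 reads, ratio 0.571, interval 0.313 to 1.02), and Got1, the cytosolic aspartate aminotransferase (30 and 17, ratio 0.567, interval 0.293 to 1.06), lay among the lowest of all shared genes, as did Plin4 (49 and 29) and Vegfa (34 and 19, and 34 and 16 in the region of its tallest Des+/+ peak).

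**Figure D4:**
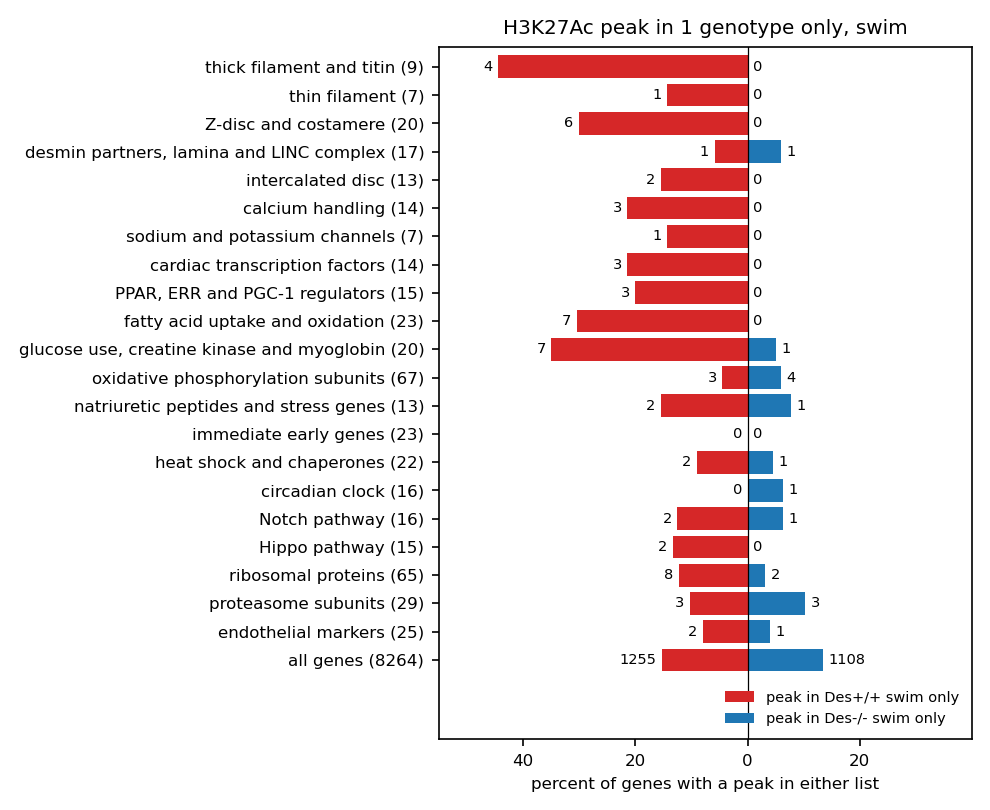
Share of genes with an H3K27Ac peak in Des+/+ swim only (red, left) and in Des-/- swim only (blue, right) among the genes of each list with a peak in either (x axis, percent), counted by assigned gene with an input under 10. Counts stand beside the bars; the background of all genes is 15.2% and 13.4%, and the contractile, fatty acid and glucose lists have their genes on the Des+/+ side, with at most 1 gene on the other.

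Immediate early genes, which respond to acute load, had similar heights in both genotypes. All 23 immediate early genes with a peak were shared with a median relative log2 ratio of -0.04 and none past 1.5-fold, among them Fos (73 and 72 reads), Egr1 (62 and 67) and Atf3 (38 and 29). Heat shock and chaperone genes had a median of -0.22 over 20 shared genes, 17 of them below 0, and of -0.42 with 5 of 16 genes lower when counted by assigned gene with the input limit. Hspb7, a small heat shock protein of heart muscle, had 40, 38, 30 and 20 reads and was the only gene of the 20 past 1.5-fold, and its promoter peak alone stood at 30 and 15 reads. Hspa8 (93 and 92 reads) and Hsp90aa1 (61 and 73) differed little. Nppb, the brain natriuretic peptide, had 45, 37, 28 and 17 reads with peaks paired by overlap, and was lower by the 1.5-fold rule, its Des-/- peak having been assigned to another gene. Clock genes had a median of 0.16 over 15 shared genes. Cry1, a repressor of the clock, was the only one past 1.5-fold and had 35 and 34 reads at rest and 22 and 45 after swimming (ratio 2.05, interval 1.20 to 3.58). The Des-/- input under Cry1 was 10 reads. The ribosomal protein genes had a median of -0.01 over 59 shared genes and the proteasome genes -0.09 over 23, close to the value of 0 that defines the median of all genes.

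Notch pathway genes lay on both sides. Over 13 shared genes the median was 0.04. Notch1 had 43, 42, 22 and 30 reads in the 4 libraries, Notch2 (19 reads) was seen in Des-/- swim only, and Notch3 and Heyl (17 reads each) in Des+/+ swim only. Dll4, the endothelial ligand, was the 1 higher gene with 18 and 33 reads (ratio 1.83, interval 1.0 to 3.46). Jag2 (38 and 30 reads), Hes1 (29 and 30) and Rbpj (32 and 41) were within 1.5-fold. Of the other genes the study follows, Erbb4 (15 reads) was seen in Des+/+ swim only, and Akt1 (25 and 41 reads), Vdac1 (36 and 44), Mib1 (26 and 28) and Fkbp1a (44 and 53) were within 1.5-fold.

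Endothelial genes showed higher values in Des-/- swim in part. Over 22 shared endothelial markers the median relative log2 ratio was 0.17 after swimming and -0.25 at rest. Sox17, a factor of arterial endothelium, had 25 and 18 reads at rest and 15 and 31 after swimming, a ratio of 2.07 (1.08 to 4.12). Sox7 had 24 and 34 reads at rest, no peak in Des+/+ swim and 30 reads (20.2 to 42.8) in Des-/- swim. Erg (40 and 57 reads after swimming), Fli1 (49 and 67), Ets1 (21 and 33) and Pecam1 (26 and 40) were above the median but within 1.5-fold by their tallest peaks. The promoter region of Ets1 alone had 16 and 33 reads (ratio 2.06, interval 1.1 to 4.01). Tek (19 reads) and Mmrn2 (16) were seen in Des+/+ swim only, so the members did not all lie on 1 side. By tallest peaks Sox17 was the only one of 22 past 1.5-fold, a share of members near the background.

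Among all genes, the tallest seen in Des+/+ swim only and without an overlapping Des-/- peak were Katnip (36 reads), A930001A20Rik (33), Fbxl9 (32), Mlycd (31) and Ppargc1b (31). Actc1 and Fabp3 were also among the tallest 20. The tallest seen in Des-/- swim only were 4930515G16Rik (44 reads), Khnyn (35), Ogfod2 (35), Clmp (33), Plekhb1 (32), Mrfap1 (31) and Mysm1 (31), followed by Sox7 and Tcf7l1 (30 each). Of the shared genes, Gramd2b (41 and 16 reads, ratio 0.390, interval 0.204 to 0.711) and Speg (46 and 20, ratio 0.435, interval 0.244 to 0.750) were among the lowest. Yipf7 (30 and 15 reads) and Cdk5rap1 (37 and 21, and 37 and 16 in its promoter region) followed. Psmd5 (16 and 37 reads, ratio 2.31, interval 1.26 to 4.45), Otub1 (15 and 34) and Hlx (19 and 43) were among the highest, with Des-/- inputs of 12, 9 and 8 reads. The Des-/- inputs were 5 reads under Gramd2b and 7 under Speg. Numbers of peaks differed widely at Rbpms (18 and 8) and Clic5 (16 and 9), and Fhod3, a sarcomere formin, had 6 peaks in Des+/+ swim and none in Des-/- swim.

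Height ratios moved with base composition. In 300 bases at the summit of 7492 shared regions, the ratio of observed to expected CpG was taken, since CpG islands mark the promoters of broadly expressed genes. The median relative log2 ratio was -0.15 in 1359 regions with a CpG ratio under 0.3, -0.07 from 0.3 to 0.6, 0.03 from 0.6 to 0.9 and 0.07 in 1973 regions over 0.9. The share of lower regions was 8.98% in the poorest class and 1.67% in the richest, and the median Des-/- input was 3, 4, 7 and 8 reads. The 48 shared regions of contractile genes had a median of -0.38, and 43 of them lay below 0. They were mostly CpG-poor, with 20.8% at 0.6 or more. Within the CpG classes their medians were -0.41, -0.41, -0.26 and -0.02, over 23, 15, 8 and 2 regions. In the 2 poorest classes these values were further from 0 than those of all regions in the class. Endothelial regions gave 0.00, 0.01, 0.25 and 0.44 over 26, 11, 11 and 1 regions. Dividing each gene by the median of its own CpG class gave a contractile median of -0.64, against -0.69 without it. Both values come from the gene rule with the input limit, which can itself lower a gene's tallest Des-/- peak. The part of base composition in the contractile values was not tested.

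**Figure D5:**
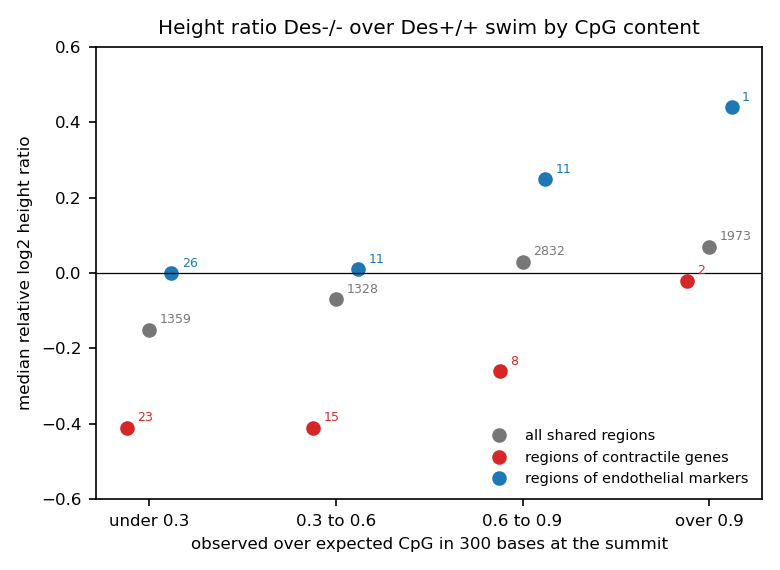
Median relative log2 height ratio of shared regions, Des-/- over Des+/+ swim (y axis), by the ratio of observed to expected CpG in 300 bases at the summit (x axis). Grey points are all shared regions, red those of contractile genes and blue those of endothelial markers, with the number of regions beside each point; the grey points go from -0.15 to 0.07, and the red points lie at -0.41 in the 2 poorest classes.

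The windows of genotype-specific peaks were alike in GC content but not in CpG content. The median GC content was 53.3% for peaks in Des+/+ swim only and 53.7% for those in Des-/- swim only, against 62.0% and 59.7% for the shared peaks of each library. The median ratio of observed to expected CpG was 0.34 and 0.46, and 31.5% and 37.5% of the specific windows had a ratio of 0.6 or more, against 61.8% and 57.8% of the shared ones. Promoter peaks made up 55.4% and 65.1% of the specific peaks and 81.5% and 78.8% of the shared ones. Specific peaks were also lower than shared ones, and shared peaks of 15 to 20 reads lay nearer to them. Of these low shared peaks, 47.3% in Des+/+ swim and 32.7% in Des-/- swim had a CpG ratio of 0.6 or more. Their median GC content was 56.7% and 53.0%, and 74.9% and 64.2% were promoter peaks. In Des-/- swim the specific peaks thus differed little from shared peaks of like height. Searched on both strands, the TEAD motif GGAATG lay in 14.8% and 14.0% of the specific windows, GATAAG in 7.23% and 6.93%, the AP-1 motif TGANTCA in 7.19% and 5.48%, and the SOX motif ATTGTT in 8.29% and 10.4%. No motif searched thus set the Des+/+-specific windows far apart from the Des-/--specific ones.

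The same comparison was made between the basal lists. In the basal lists, 657 genes (6.20%) had a peak in Des+/+ only, 1179 (11.1%) in Des-/- only, and of 8764 shared genes 265 (3.02%) were lower and 267 (3.05%) higher. The 236 genes lower after swimming that were shared in both conditions had a median relative log2 ratio of -0.08 at rest, with 133 below 0 and 103 above. The 187 higher genes had 0.10. Over 5744 genes the swim and basal ratios had a Pearson correlation of 0.08 and a Spearman correlation of 0.09, given as a description across genes that share 2 pairs of libraries. The contractile genes lay in the same direction in the basal libraries as after swimming, but less far from 0. Their basal median was -0.18, with 31 of 41 shared genes below 0 and 10 above.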

How the data were processed

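H3K27Ac ChIP-seq of isolated adult cardiomyocytes was analysed from the deposited peak lists. The authors aligned reads to GRCm38 (mm10) with Bowtie2 2.4.4, sorted them with SAMtools 1.13, called peaks against input with scripts of their own, and annotated peaks with ChIPseeker 1.36.0 (versions from the submitters' processing notes). The deposited signal is a peak's largest read coverage in the ChIP library, with the input coverage beside it; both hold whole numbers and were taken as unscaled reads, although scaling and the handling of duplicates are not given in the sources used here, and the intervals rest on this. Read totals were not used. The deposited distance to the start site is a score in bases. Columns with the authors' p-values, false discovery rates and fold enrichment were not used, and the lamin A/C lists were not used here.

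The gene members, lists and the comparison were chosen with earlier results of these data known. Groups came from the labels. Peaks were paired by an overlap of at least 1 bp, peaks with an input of 10 or more were set aside in the gene counts, and the tallest peak per gene was compared relative to the median ratio, with 1.5-fold as the size rule. Named were the 10 tallest genotype-specific genes each way, the 10 lowest and the 10 highest ratios with a larger height of at least 30, up to 6 members per gene list and direction, Des and the genes the study follows; other names were chosen after their values were seen. Wilson, exact Poisson and exact conditional binomial 95% intervals cover counting error only. Since 1 library stood on each side, no test was made. Alternatives changed the input limit, minimum height, overlap, height measure, fold, scaling and gene assignment, and pairing by overlap and scaling by CpG content were added after the data were seen. Calculations used Python 3.11.15, NumPy 2.4.6, pandas 2.3.3 and SciPy 1.17.1 and were tested on simulated data.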

Additional observations from a re-analysis of the deposited data

Results flagged for a closer look

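Some genotype differences lay on opposite sides of the median after swimming and at rest. Each rests on 1 library per genotype and condition, and the difference between conditions was not tested. The endothelial markers, counted by assigned gene with the input limit, had a median relative log2 ratio (Des-/- over Des+/+) of 0.11 after swimming and -0.25 at rest.

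Of 5929 genes shared in both conditions, 8 were past 1.5-fold in opposite directions and 15 past it in the same direction. Rhot2, a mitochondrial transport GTPase, had a relative log2 ratio of -0.93 after swimming and 0.72 at rest. Esrrg, the estrogen-related receptor gamma, had -0.63 after swimming and 0.63 at rest. Gm3383 had -0.84 and 0.83 in the same order, Tent5a -0.80 and 0.65, Zfp809 -0.75 and 0.58, and Cep44 -0.62 and 0.62. In the other direction, 4930447K03Rik had 0.74 after swimming and -1.0 at rest, and Snupn, the snurportin of small nuclear RNA import, had 0.75 and -0.76.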

How the results depend on the processing

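No paired analysis was possible because each group had 1 sample, and for the same reason no replicate could be left out. The contractile median stayed below 0 in all 11 alternatives (-1.07 to -0.50) and the endothelial median above 0 (0.09 to 0.33). Calcium handling genes reached 0.27 and cardiac transcription factors 0.05 with a minimum of 30 reads, and the medians of the desmin partner, glucose, stress, immediate early, clock, Notch, Hippo, ribosomal and proteasome lists took both signs across alternatives. Of 71 alternative values of the main counts and of the median ratio, 46 stayed near the value reported and 25 did not. With at least 20 reads, specific peaks numbered 532 (Des+/+) and 547 (Des-/-), specific genes 335 and 397, and lower and higher genes 165 and 91. With at least 30 reads these were 12 and 17, 34 and 46, and 30 and 12. A 2-fold rule gave 97 lower and 13 higher genes, no division by the median ratio 226 and 455, and summed heights 862 and 552. Height minus input gave 404 higher genes. The median ratio was 1.120 without an input limit, 0.9655 with input under 6, 1.111 for promoter peaks, 1.0 for height minus input, 1.071 for summed heights and 1.118 with peaks paired by overlap. Single ratios reversed for Hnrnpl (0.05) and Dnajb5 (0.04) without the input limit and when paired, and for Scaf1 (-0.21), Mrpl58 (-0.02) and Mpc2 (-0.33) when paired. The promoter region of Dnajb5 alone nevertheless had 39 and 17 reads (ratio 0.436, interval 0.231 to 0.789). The cause of these changes between alternatives was not tested, except that fewer peaks pass a higher minimum.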
